A study of Arabidopsis thaliana with 6 samples.

Results

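The features described here are those that reached at least 1 FPKM in both Input libraries of NAA-treated seedlings, 19359 of the 39351 features of the deposited table (49.2%). FPKM, fragments per kilobase of exon scaled to the depth of the library, divides the reads of a feature by its length, so that levels of different genes can be set side by side. The plants were Arabidopsis thaliana seedlings that expressed NSRa, a nuclear speckle RNA binding protein, with an HA epitope tag from its own promoter (pNSRa:NSRa-HA) in the nsra mutant. They had grown in 16 h of light and 8 h of dark, had been kept for 24 h with NAA, a synthetic form of auxin, and UV light was applied before lysis. The dose was given as 100 nM in one label and as 1 µM in another, and the age as 10, 14 or 15 days. Both Input libraries came from the lysate before the immunoprecipitation, were depleted of ribosomal RNA and were prepared without selection for poly(A). The series has 6 libraries in all, 2 of them Input. None of the Input libraries came from seedlings without NAA, from untagged plants or from plants without UV, so the levels below are a description of this tissue, and no change upon auxin can be read from them. Nothing in the labels says that the 2 libraries came from separate batches of plants, so the SD given with n = 2 may be technical.

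Auxin acts by bringing Aux/IAA repressors to the TIR1/AFB receptors, F-box proteins that mark the repressors for destruction. The auxin response factors (ARF) that the repressors had held can then act on their target genes. Among the best known targets are the Aux/IAA genes themselves, the GH3 genes, whose enzymes join auxin to amino acids, the SAUR genes, tied to cell elongation, and several LBD genes, which act in lateral root formation. A green seedling is at the same time a photosynthetic organism, in which the light-harvesting antenna proteins, the photosystem subunits and the enzymes of carbon fixation are made from nuclear genes in large amounts.

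The libraries were deep and close to each other. The FPKM had been scaled to 27494965 reads in Input 1 and 25274634 in Input 2, recovered from the FPKM and the annotated exon lengths. Annotated nuclear genes held 27373025 and 25163442 of these. They are thus totals of reads counted on features and not of all reads sequenced. On this scale 1 FPKM of a gene with 1000 bases of exon stood for 27.5 and 25.3 reads. Each library had 19616 features of at least 1 FPKM, and 257 of these reached that level only in Input 1 and a further 257 only in Input 2. Just inside the threshold were B120 (1.14 FPKM in Input 1 and 1.00 in Input 2), AT1G52800 (1.00 and 1.41 FPKM) and MLS, a malate synthase (1.098 and 1.00 FPKM). Just outside were AT1G13630 (1.05 and 0.9997 FPKM), the non-coding AT5G03805 (0.9996 and 1.34 FPKM) and AT2G32020 (1.19 and 0.9995 FPKM). A further 11690 features were listed at 0 in both libraries, and among them were all 284 genes of the chloroplast and mitochondrial genomes in the table.

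Protein-coding genes held nearly all of the summed FPKM. Of 27442 protein-coding genes, 18630 were members (67.9%), and these held 99.02% of the summed FPKM of the members. This is a share of a table made from RNA depleted of ribosomal RNA, in which organelle genes are listed at 0, and not of all RNA in the tissue. The share of protein-coding genes that were members lay between 65.3% on chromosome 2 and 69.0% on chromosome 5. The other members were 244 of 3474 lncRNA genes, 145 of 249 snoRNA genes, 95 of 219 genes annotated as ncRNA, 65 of 505 miscellaneous RNAs, 16 of 78 snRNA genes, 6 of 625 tRNA genes, 2 of 78 antisense RNAs, 2 of 3 rRNA genes, 1 pseudogene and 153 of 6393 assembled loci. The last are transcribed regions that the authors assembled themselves and that have no annotated gene.

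Levels spanned a wide range. The median member had 10.7 FPKM (mean of both libraries), the 10th percentile was 2.27 FPKM, the 90th 52.0 FPKM and the 99th 289 FPKM. Between 2 and 100 FPKM lay 16899 members, while 858 had 100 to 1000 FPKM and 53 exceeded 1000 FPKM. The last 53 were all protein-coding and held 23.9% of the summed FPKM, against 6.77% for the 7687 members of 2 to 10 FPKM. The 743 highest features held 50% of the summed FPKM. Protein-coding members had a median of 1771 bases of exon and 5 exons, and 12.9% had a single exon. Among the 4099 protein-coding genes listed at 0 in both libraries, the median was 720 bases and 2 exons, and 35.9% had a single exon. Among the members, those over 1000 FPKM were shorter (median 1242 bases, 3 exons) than those of 10 to 100 FPKM (median 1775.5 bases, 6 exons). A short gene needs a higher FPKM for the same number of reads, and this part of the difference was not tested.

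To characterize the top of the ranking, the 25 highest features were examined. Of these, 13 encoded chlorophyll a/b binding proteins of the antenna, 8 encoded subunits of photosystem I or II, and 3 belonged to carbon fixation (RBCS1A, RBCS3B and RCA), which left only the metallothionein MT1A outside photosynthesis. CAB1, an antenna protein of photosystem II (LHCB1 type, TAIR10.1 chromosome 1, 10477885 to 10479114, plus strand, 1 exon), was the highest of all with 12560 FPKM in Input 1 and 12239 in Input 2 (12399 ± 227.2 FPKM, SD, n = 2), 1160 times the level of the median member. LHB1B2, a further LHCB1 gene (chromosome 2, 14522524 to 14523568, minus strand, 1 exon), followed with 11434 and 10850 FPKM (11142 ± 412, SD, n = 2). The ranges of these genes did not overlap, and both lay far above the feature next in rank. Next among the antenna genes were LHCA4 and LHCA1 of photosystem I (5815 ± 40.4 and 4887 ± 95.6 FPKM), LHCB3 (5140 ± 31.1 FPKM) and LHCB5 (4225 ± 12.02 FPKM; SD, n = 2 each). LHCB2.2 with 3465 and 3380 FPKM and LHCB2.1 with 3440 and 3392 FPKM overlapped, so that their order was within the spread of the libraries. Summed over isogenes, LHCB1 (5 genes) reached 33721 ± 830 FPKM, LHCB2 (3 genes) 7736 ± 105 and LHCB4 (3 genes) 4076 ± 98.1 FPKM (SD, n = 2).

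The isogenes of the antenna are alike in sequence, and reads from the like stretches cannot be assigned with certainty. CAB1, CAB2 and CAB3 lie next to each other on chromosome 1 and their coding sequences of 804 bases differ at 29 to 35 positions (95.6 to 96.4% identical). The following windows of 30 bases (positions 235 to 264 of the coding sequence, TAIR10.1, read 5′ to 3′ on the coding strand) show the stretch where they differ most, since these bases let a read be assigned to its gene. Capitals mark the 6 positions at which the genes are not all the same.
CAB1, chr1:10478305-10478334, plus strand: ggatgggacacCgcCggActTtcAgctgaC
CAB2, chr1:10475629-10475658, minus strand: ggatgggacacAgcTggTctAtcCgctgaC
CAB3, chr1:10472983-10473012, minus strand: ggatgggacacCgcTggActTtcAgctgaT
Of the exon windows of 75 bases, the read length, 7.53% of those of CAB1, 10.4% of CAB2 and 3.66% of CAB3 also occurred in the exons of another gene. The share was 20.5% for LHCB2.2, 16.2% for LHCB2.1, 14.1% for RBCS3B and 0 for LHCA4, LHCB3, LHCB5 and PSBR. Most of each isogene could thus be read on its own. Over all members with such windows, 17715 of 19183 (92.3%) shared none and 1.18% shared more than 50%.

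MT1A stood apart in this respect. This metallothionein, a small metal-binding protein, took the next rank with 6329 and 6577 FPKM (6453 ± 175, SD, n = 2), from 24013 and 22939 reads. Its annotated exons sum to only 138 bases, and all 8 of its 75-base windows lie at the same position in AT1G07590, an overlapping gene on the same strand. AT1G07590 itself had 451 and 463 FPKM over 2407 bases. How the reads of the shared stretch were assigned was not tested, so the rank of MT1A is uncertain. The metallothioneins MT2B with 1830 and 1838 FPKM and MT3 with 1161 and 1226 FPKM, named here after their values were seen, shared no window with another gene and ranked 32 and 46.

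**Figure D1:**
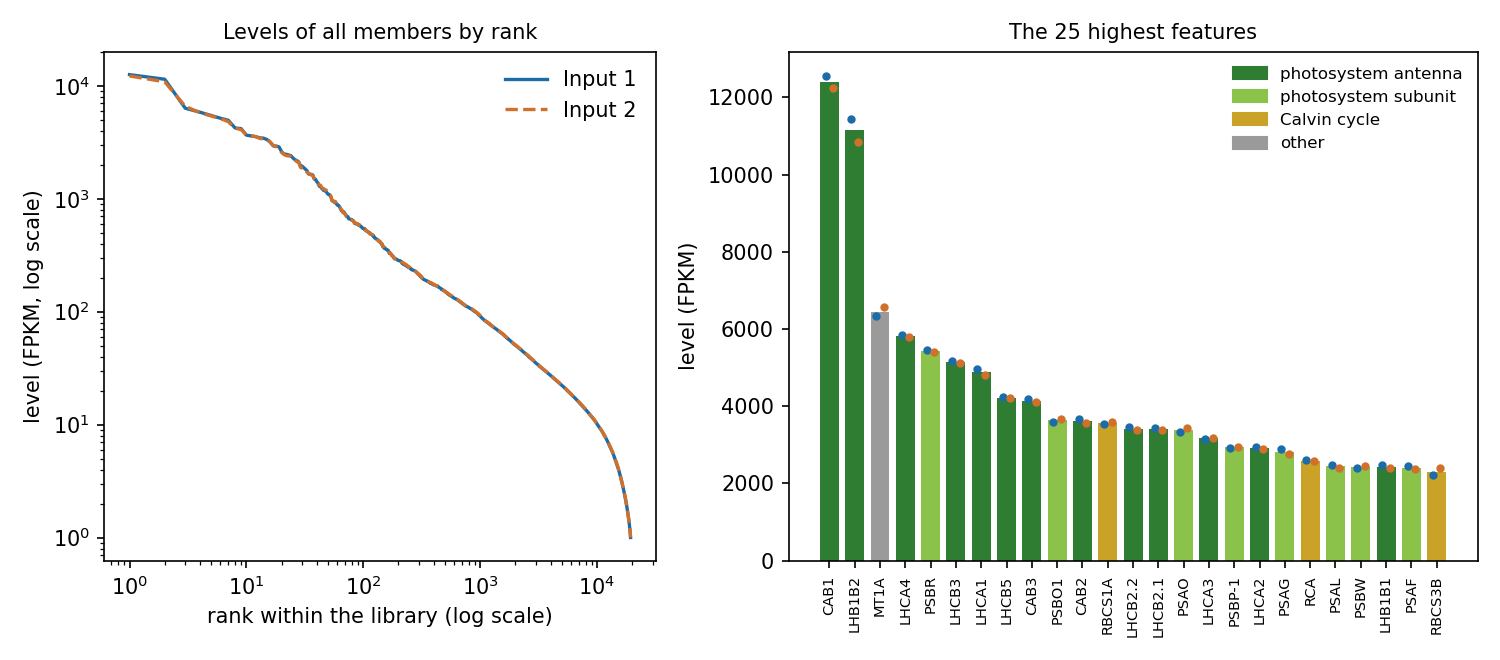
Left, level (FPKM, log scale) of all members against their rank in each Input library (log scale), where the lines of Input 1 and Input 2 lie on each other. Right, the 25 highest features, with bars for the mean FPKM from 0, points for Input 1 (blue) and Input 2 (orange) and colours for the gene group, in which all but MT1A are photosynthesis genes and CAB1 leads at 12399 FPKM.

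Photosynthesis genes were seen as a whole and not only at the top. All 20 antenna genes were members, with a median of 3293 FPKM beside 5.29 FPKM over all protein-coding genes, and 16 exceeded 1000 FPKM. The exceptions were LHCB2.3 (897 ± 11.5 FPKM), Lhca5 (113 ± 2.8), Lhca6 (62.6 ± 0.54) and LHCB4.3, which had only 8.31 and 8.17 FPKM. The nuclear photosystem subunits were listed by gene symbol, so the list may not be complete. AT1G51400, annotated as a photosystem II 5 kD protein (1124 and 1231 FPKM), is not in it. All 24 listed subunits were members (median 1634 FPKM), led by PSBR (5459 and 5410 FPKM), PSBO1 of the oxygen-evolving complex (3603 and 3669), PSAO (3344 and 3424) and PSBP-1 (2929 and 2951). PSBP-2 was the lowest with 7.06 and 7.80 FPKM, while the other 23 had at least 606 FPKM. The 14 Calvin cycle genes were all members (median 624 FPKM), and the 4 small subunits of Rubisco summed to 7519 ± 217 FPKM (SD, n = 2), with RBCS1A at 3572 ± 37.4 and RBCS1B at 516 ± 7.1 FPKM. RCA, the activase of Rubisco, had 2592 ± 28.4 FPKM, and the aldolase FBA2 had 762 ± 19 FPKM. Together the 58 genes of these 3 lists held 21.2% ± 0.24 of the summed FPKM of the members (SD, n = 2) and 16.3% ± 0.15 of their reads. By library the share of reads was 16.5% (Wilson 95% interval 16.4 to 16.5%) and 16.2% (16.2 to 16.3%), where the intervals cover counting error only, since reads from PCR are not independent molecules.

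The promoters of the photosystem subunits were searched for the G-box. The G-box (CACGTG, which reads the same on both strands) is a site known to be bound by light-signalling factors such as HY5 and the PIF proteins. In the 300 bases from 250 before to 50 after the annotated gene start, 12 of the 24 photosystem subunit genes (50%) held it, beside 7.68% of all 27442 protein-coding genes, 8.86% of the protein-coding members and 4 of the 20 antenna genes. The windows of the 4 highest of these genes are shown because they carry this element, on the coding strand of TAIR10.1 with the G-box in capitals.
PSBR, chr1:29735949-29735978, plus strand: cacaacattagcCACGTGtcataaccacaa
PSBO1, chr5:26568563-26568592, plus strand: ttcagatttcgaCACGTGgcaacaaaaaaa
PSBW, chr2:13020262-13020291, minus strand: agagatgaaatatgaCACGTGgagggcgtc
PSAE-1, chr4:14204036-14204065, minus strand: atatgtaatgtaCACGTGgcagatctcaag
In these genes the G-box began 9, 3, 35 and 8 bases after the annotated gene start, thus inside the transcript as annotated. PSBP-2, the lowest photosystem subunit of the list, also held a G-box, 63 bases before its start, so the element was not confined to the highest genes. A match of these letters is a description and does not show that a factor binds there.

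Genes of auxin response were next examined one by one. Of 29 Aux/IAA genes, 22 were members (75.9%, beside 67.9% of all protein-coding genes), with a median of 20.4 FPKM over the 29. IAA9 (chromosome 5, 26253408 to 26256544, plus strand) was the highest with 170 FPKM in Input 1 and 174 in Input 2 (172 ± 2.7, SD, n = 2). IAA8 followed with 111 and 108 FPKM and IAA16 with 99.25 and 98.9 FPKM. These genes were each apart from the next, since IAA2 had 77.1 and 78.5 FPKM and IAA26 had 52.4 and 53.8 FPKM. IAA17 (44.9 and 48.9 FPKM), IAA7 (46.4 and 47.0) and IAA4 (44.1 and 48.0) overlapped and had no order beyond their spread. IAA19, whose product acts in the growth responses of hypocotyls, had 38.6 and 39.2 FPKM, followed by IAA3 (33.7 and 35.8) and IAA1 (27.95 and 28.5). IAA27 (25.9 and 27.2 FPKM), IAA13 (24.9 and 25.5) and IAA14 (23.8 and 25.2), the last known from mutants without lateral roots, lay close together. IAA18 with 19.9 and 20.9 FPKM and IAA28 with 19.0 and 19.1 FPKM came next, and below them IAA12 (13.5 and 14.1), the partner of ARF5 in embryo patterning, and IAA11 (11.9 and 12.99). IAA10 (6.06 and 5.66 FPKM), IAA29 (5.13 and 5.40), IAA30 (2.67 and 2.71) and IAA5 (2.61 and 2.23) were the lowest members.

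Below the threshold were IAA31 (0.979 and 1.38 FPKM), IAA33 (0.671 and 0.678), IAA20 (0.626 and 0.521), IAA6 (0.339 and 0.462), IAA34 (0.251 and 0.0780), IAA32 (0.117 and 0.0635) and IAA15, listed at 0 in Input 1 and at 0.0906 in Input 2. The proteins of IAA20, IAA30, IAA32, IAA33 and IAA34 are known to lack the canonical degron by which the receptors bind Aux/IAA proteins. Each of these 5 genes stood at or below 2.69 FPKM, with IAA30 as the only member among them. IAA15 had 0 and 2 reads, so its level lay at the limit of the depth.

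The GH3 family ranged from high to undetected genes. Of 20 genes, 14 were members (70%, beside 67.9% of all protein-coding genes), and the median was 4.50 FPKM, beside 5.29 FPKM over all protein-coding genes. GH3.5 (chromosome 4, 13653579 to 13656285, plus strand) had 196.2 and 195.8 FPKM (196.0 ± 0.30, SD, n = 2) and GH3.2 had 131 and 129 FPKM. GH3.3 with 80.2 and 81.6 FPKM and GH3.6 with 80.3 and 79.6 FPKM overlapped. GH3.17, the fifth of the enzymes known to conjugate indole-3-acetic acid in this order, had 48.3 and 48.6 FPKM. GH3.11 (JAR1), which conjugates jasmonate and not auxin, lay between them with 64.5 and 63.9 FPKM. GH3.10 (17.4 and 17.5 FPKM), GH3.1 (13.33 and 13.34), AT5G13360 (10.9 and 10.6), AT5G13370 (6.77 and 6.29), GH3.9 (2.67 and 2.27), AT1G48690 (1.69 and 1.77), GH3.12 (1.79 and 1.63), which acts in salicylate signalling, and AT5G51470 (1.22 and 1.02) were lower members. AT1G23160, AT1G48670 and AT1G48660 had means of 0.686, 0.629 and 0.309 FPKM. GH3.4, AT5G13350 and AT5G13380 had no read in either library, and 3 reads, the limit that a count of 0 allows, would have been 0.0608 and 0.0662 FPKM for GH3.4. AT5G13350, AT5G13360, AT5G13370 and AT5G13380 carry neighbouring gene numbers, and only the middle ones were members.

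**Figure D2:**
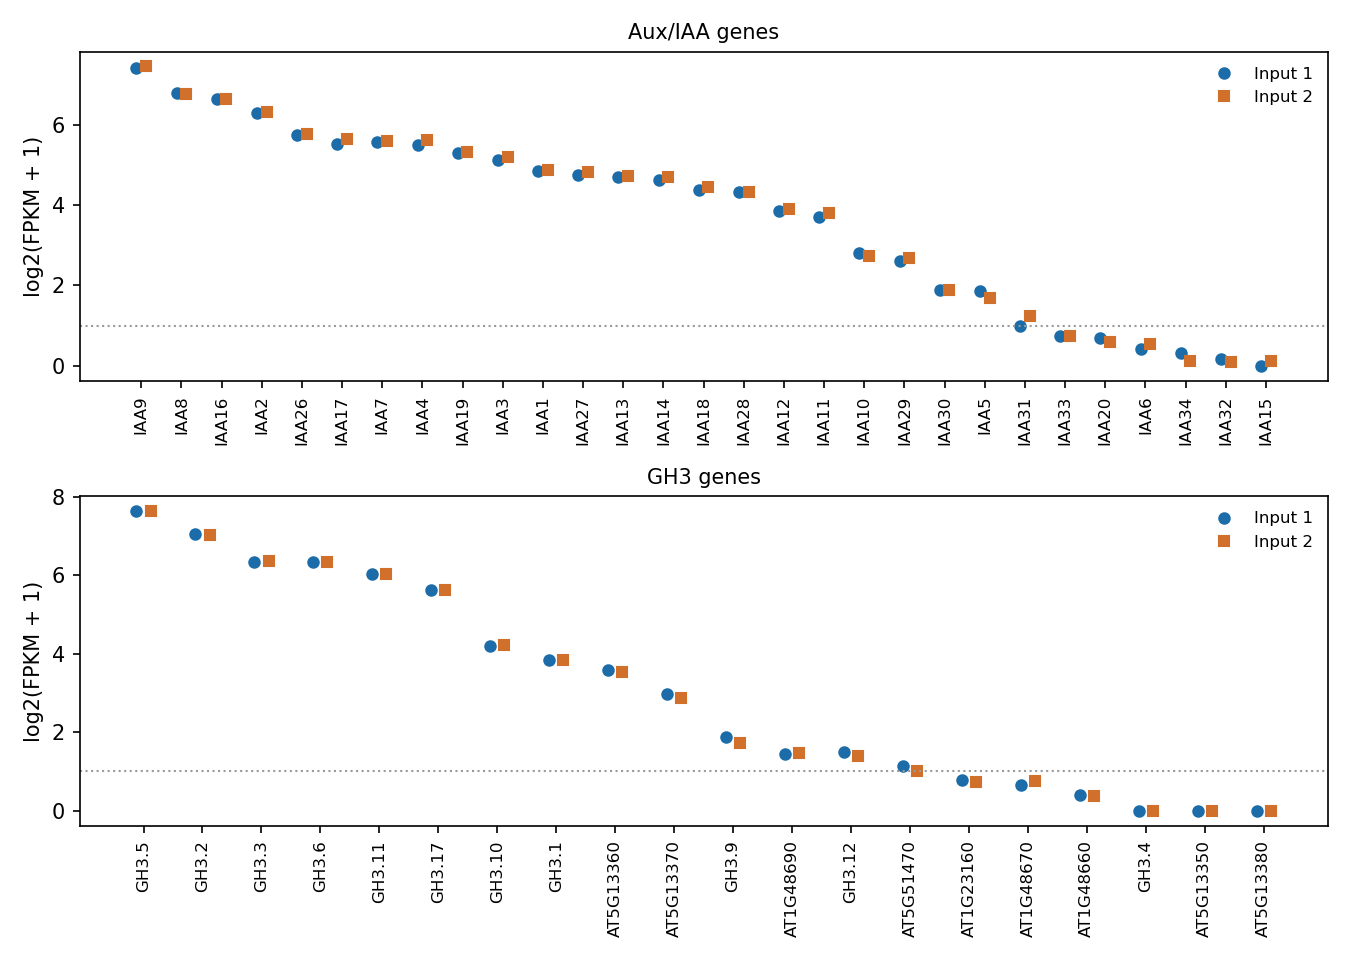
Level, as log2(FPKM + 1), of every Aux/IAA gene (top) and every GH3 gene (bottom) in Input 1 (blue circles) and Input 2 (orange squares), ordered by mean, with the dotted line at 1 FPKM. IAA9 and GH3.5 lead at 172 and 196.0 FPKM, the libraries lie on each other for high genes, and 7 Aux/IAA and 6 GH3 genes fall short of the threshold in at least 1 library.

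The canonical auxin response element, TGTCTC, the letters bound by ARF proteins, was searched on both strands of the same promoter window. It occurred in 12 of 29 Aux/IAA promoters (41.4%) and in 4 of 20 GH3 promoters (20%), beside 14.2% of all protein-coding genes. In the other auxin families searched, 7 of 41 LBD (17.1%) and 11 of 78 SAUR promoters (14.1%) held it. Among members it occurred in 6 of 22 Aux/IAA and 4 of 14 GH3 genes, beside 13.5% of all protein-coding members. The other Aux/IAA genes that held it thus lay below the threshold. Of the high Aux/IAA genes, IAA8 held it, while IAA9, IAA16 and IAA2 did not. Of the high GH3 genes, GH3.5, GH3.2 and GH3.3 held it, while GH3.6 did not. Low members such as IAA30 (mean 2.69 FPKM) and IAA5 (2.42 FPKM) held it too, so the element was not confined to high genes. The windows of the highest genes that held the element are shown on the coding strand of TAIR10.1, with TGTCTC or its complement in capitals.
GH3.5, chr4:13653520-13653549, plus strand: tcttccttattgTGTCTCtactctctactt
GH3.2, chr4:17579462-17579491, plus strand: gtgggtcccttaTGTCTCcattaactaaca
GH3.3, chr2:9866661-9866690, minus strand: cctcttgtccccTGTCTCggtctaacgata
IAA8, chr2:9636158-9636187, plus strand: aaaagaataacaGAGACAaaaaaaagtcat
IAA19, chr3:5263844-5263873, plus strand: cctcagttgaccTGTCTCtgcccccacttt
IAA19, chr3:5263861-5263890, plus strand: ctgcccccacttTGTCTCcccacacaaact
These elements began 47, 144, 116, 176, 145 and 128 bases before the annotated gene start, in the order shown. IAA19 held a further one, 184 bases before its start. The absence of these letters from the window says nothing about other sites or longer promoters.

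The remaining auxin lists were read beside the 67.9% of all protein-coding genes that were members. The shares of the ARF and SAUR lists lay near it. All 6 TIR1/AFB receptor genes were members, with TIR1 at 35.7 and 34.98 FPKM, AFB5 at 28.7 and 27.8, AFB3 at 26.4 and 28.8, and AFB4 the lowest at 6.60 and 6.20. Of 23 ARF genes, 15 were members (65.2%). ARF2, a repressing type, was the highest at 93.4 and 92.0 FPKM, followed by ARF1 (36.2 and 34.998), ARF16 (24.7 and 24.3) and ARF6 (20.4 and 18.7). ARF6 is of the activating type, as are, among others, ARF7 with 13.4 ± 0.64, ARF5 with 8.73 ± 0.24 and ARF19 with 8.68 ± 0.43 FPKM (SD, n = 2). The 8 ARF genes that were not members, ARF12 to ARF15 and ARF20 to ARF23, had at most 0.204 FPKM, and 5 of them were at 0 in both libraries. All SAUR levels were modest: 49 of 78 genes were members (62.8%), the median was 1.37 FPKM, and the highest were SAUR32 (44.7 and 47.3 FPKM), SAUR14 (43.3 and 42.2), SAUR31 (39.2 and 39.5) and SAUR16 (37.7 and 41.0). LBD genes had the lowest median of the auxin lists, 0.839 FPKM, with 19 of 41 as members (46.3%). LBD29 was the highest of them at 37.2 and 38.6 FPKM, followed by LBD37 (27.3 and 26.4), LBD18 (23.8 and 21.8) and LBD39 (18.22 and 19.3).

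Auxin carriers were nearly all present. Of 16 auxin transport genes, 15 were members (93.8%, beside 67.9% of all protein-coding genes, median 19.6 FPKM), led by the efflux carrier PIN7 with 64.8 and 65.1 FPKM and the influx carriers LAX3 with 55.2 and 53.8 and AUX1 with 48.5 and 47.0 FPKM. The transporter ABCB19 had 37.99 and 36.8 FPKM. PIN8, known from pollen, was the exception with 1 read in each library. Among genes of auxin synthesis and removal, 15 of 23 were members (65.2%, near the share over all protein-coding genes, median 3.19 FPKM). The highest were the nitrilase NIT1 (247 and 247 FPKM), CYP79B2 and CYP79B3 (84.9 and 82.2, and 45.4 and 43.2 FPKM), which make indole-3-acetaldoxime for auxin and indole glucosinolates, and the amidohydrolase IAR3 (16.6 and 17.57 FPKM). In the main synthesis route TAA1, with 8.13 and 7.62 FPKM, and TAR2, with 4.74 and 4.43 FPKM, were above all YUC genes, of which YUC9 was the highest at 3.07 and 3.31 FPKM. YUC7, YUC10, YUC11 and TAR1 were listed at 0 in both libraries. TAA1, TAR2 and the YUC genes other than YUC9 were named after their values were seen.

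To see which organs the tissue held, 15 sets of markers were read, beside the 67.9% of all protein-coding genes that were members. Mesophyll markers were the highest of all sets (median 3004 FPKM), followed by those of the shoot epidermis (80.9 FPKM), whereas the stomatal, trichome and shoot apex sets had medians of 2.40, 2.74 and 2.05 FPKM. All 6 mesophyll markers were members, from CA1, a carbonic anhydrase, with 430 and 421 FPKM, up to CAB1. The others, CAB1, LHCB2.1, RBCS1A, RBCS3B and RCA, are photosynthesis genes already named among the 25 highest features. The first place of this set thus repeats that ranking and is no separate evidence on organs. All 5 epidermis and cuticle markers were members too, with CER6 at 150 and 147 FPKM, PDF1 at 112 and 106, FDH at 82.9 and 78.9, and the regulator ATML1 at 19.9 and 19.1. Of 9 stomatal genes 8 were members, with the guard cell factor MYB60 at 11.96 and 13.2 FPKM and FAMA at 8.33 and 8.49 above the early factors SPCH (1.52 and 1.40 FPKM) and MUTE (0.541 and 0.673 FPKM, not a member). Of 4 trichome genes 3 were members, with MYB106 the highest at 4.23 and 4.82 FPKM.

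Vascular and shoot apex markers were read next, again beside 67.9% of all protein-coding genes as members. SUC2, the sucrose carrier of phloem companion cells, had 105 and 98.3 FPKM, and 3 of 4 phloem markers were members, CALS7 missing the threshold with 0.983 and 0.991 FPKM. All 6 xylem markers were members, from XCP2 (55.9 and 51.2 FPKM) to MYB46 (2.56 and 2.43 FPKM), with the secondary wall cellulose synthases CESA4, CESA7 and CESA8 close together at means of 10.2, 9.43 and 8.98 FPKM. Of 5 shoot apex markers only 3 were members (60%), and the median was 2.05 FPKM, beside 5.29 FPKM over all protein-coding genes. These members were CLV1 with 26.6 and 26.4, KNAT1 with 5.41 and 5.48 and STM with 1.92 and 2.18 FPKM. WUS, of the stem cell niche of the shoot, had no read (3 reads would have been 0.0874 and 0.0951 FPKM), and CLV3 had 0 and 1 read.

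Root markers were also detected, with medians of 6.46 FPKM for root hair, 5.18 for root cap, 3.93 for endodermis and 2.36 for the stem cell niche. The median over all protein-coding genes was 5.29 FPKM. The shares of members among endodermis (75%), root cap (66.7%) and ion uptake genes (72.7%) lay near the 67.9% of all protein-coding genes. All 8 root hair markers were members, led by PRP3 (36.3 and 32.1 FPKM) and followed by EXPA18 (8.93 and 9.14) and EXPA7 (9.51 and 7.69). The endodermis showed SCR (11.9 and 11.6 FPKM), CASP1 (11.99 and 11.2) and ESB1 (10.3 and 9.81), with 6 of 8 genes as members. In the set of the root stem cell niche, SHR had 10.09 and 9.47 FPKM, WOX5 2.66 and 3.27, PLT1 1.505 and 2.005 and PLT2 1.20 and 1.36. All 4 were members, but 3 lay below the median of all protein-coding genes. Only 2 of them reached 2 FPKM in both libraries. In the root cap set, BRN1 had 17.8 and 17.4 and SMB 5.09 and 5.26, while BRN2 had 1.09 and 0.865 FPKM. Lateral root primordia, which auxin induces, were read through 6 genes, of which 5 were members. Besides LBD29 and LBD18 these were LBD16 (7.79 and 7.01 FPKM), PUCHI (6.67 and 6.50) and LBD33 (1.82 and 1.53), whereas GATA23, a marker of founder cells, had 0.597 and 0.709 FPKM. Of 11 genes of ion uptake 8 were members, with the nitrate carrier NRT1.1 at 36.7 and 34.9 FPKM, AMT1;1 at 23.8 and 25.3, and the phosphate carrier PHT1;1 at 24.2 and 21.1. The high-affinity nitrate carrier NRT2.1 had 0.706 and 0.750 FPKM. In bulk tissue, fewer cells of a type and less RNA per cell cannot be told apart, and this holds for every marker.

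Markers of reproductive tissue were mostly below the threshold. None of 5 pollen and none of 11 seed storage genes were members, and 3 and 5 of these were at 0 in both libraries. The seed gene closest to the threshold was EM6 with 1.41 and 0.879 FPKM, from 28 and 16 reads. Of 8 floral genes, SEP3 (2.63 and 2.71 FPKM) and PI (1.00 and 1.18 FPKM) were members, while AP1 had no read and LFY had 2 reads in each library.

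**Figure D3:**
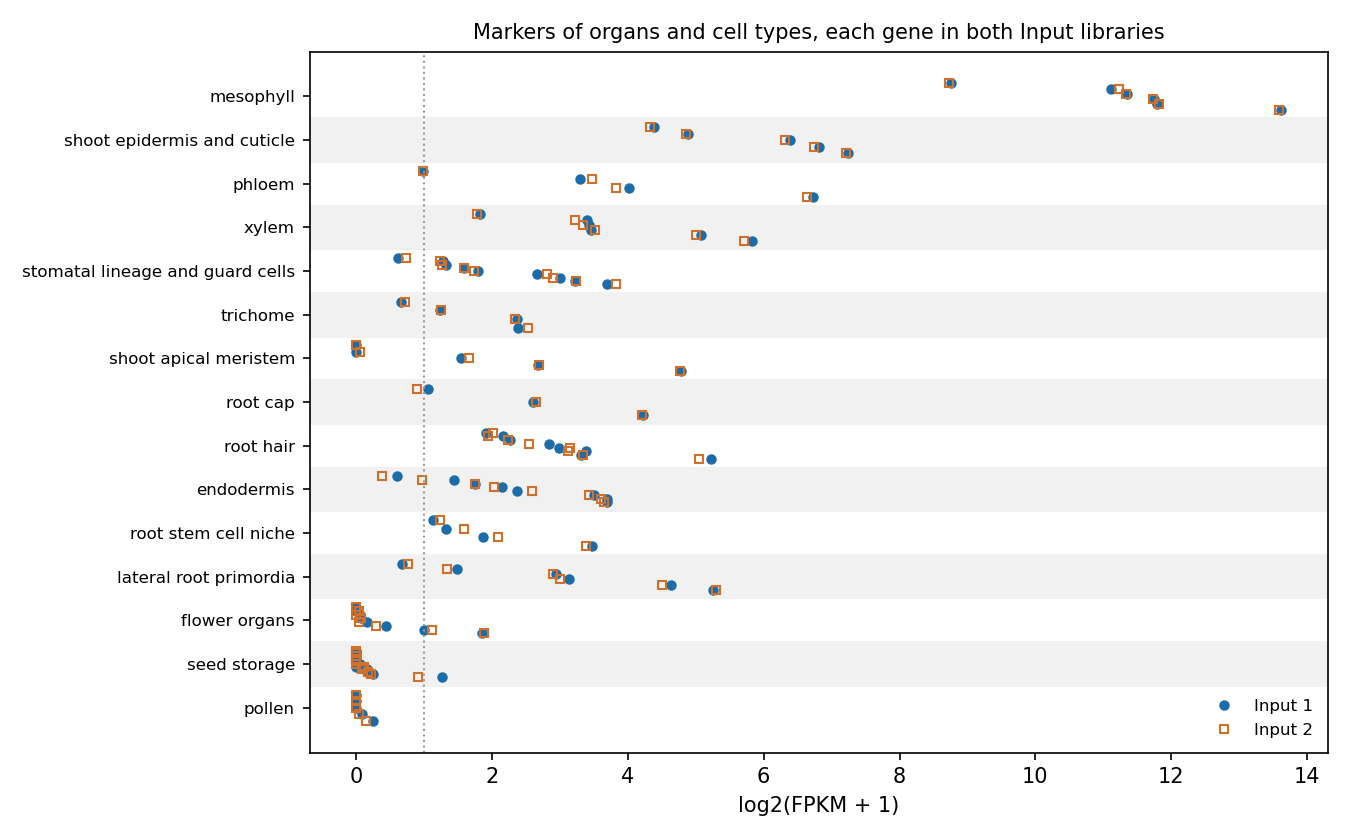
Level, as log2(FPKM + 1), of each marker gene in Input 1 (blue circles) and Input 2 (orange squares), one line of points per organ or cell type, with the dotted line at 1 FPKM. Mesophyll genes lie highest, from 421 to 12560 FPKM, root and vascular genes lie mostly between 1 and 60 FPKM, and pollen and seed genes lie near 0.

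Growth and division genes were examined next, again beside 67.9% of all protein-coding genes as members. Of 34 cyclin and CDK genes 29 were members (median 6.66 FPKM), with the D-type cyclin CYCD3;1 at 31.0 and 30.5 FPKM, CDKA;1 at 29.1 and 30.3, CYCD3;2 at 24.7 and 25.03 and the mitotic kinase CDKB2;1 at 19.2 and 17.8. All 8 replication genes were members, from PCNA2 (19.3 and 20.8 FPKM) to MCM6 (5.80 and 5.50 FPKM). Histone genes were higher, with 39 of 45 as members and a median of 37.8 FPKM. They were listed by product name, and histones tied to replication were not separated from others, so their levels are no measure of division. Their highest were the H3 genes AT4G40040 (227.2 ± 0.60 FPKM), AT5G10980 (173 ± 4.1) and AT4G40030 (170 ± 0.83) and the H2B gene HTB9 (147 ± 0.68; SD, n = 2). A list of 79 ribosomal protein genes was drawn by a pattern in the product names, so genes named otherwise are not in it. Of these, 68 were members, and the median was 65.4 FPKM. The highest in the list were emb2386 (483 and 497 FPKM), AT5G20290 (421 and 419), AT4G18100 (267 and 283) and AT5G56710 (254 and 274). The members of this list held 1.15% ± 0.016 of the summed FPKM, beside 11.8% ± 0.22 for the 20 antenna genes. The first value is for the listed genes and not for all ribosomal proteins, so the 2 shares are not like for like.

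Pathways of defence and of pigments were also seen, with the same 67.9% of all protein-coding genes for comparison. Glucosinolates are sulfur compounds of the cabbage family that myrosinases split upon wounding. The myrosinase TGG1 had 1420 and 1387 FPKM (rank 40), and the 7 genes of breakdown were all members (median 113 FPKM), NSP1 with 281 and 274, TGG2 with 230 and 217 and ESM1 with 115 and 112 FPKM. On the side of synthesis 17 of 18 genes were members (median 50.9 FPKM), with MAM1 of chain elongation at 175 and 169, CYP83A1 at 125 and 121 and CYP83B1 at 106 and 106 FPKM. MYB34, a regulator of the indole branch, had 51.8 and 54.1 FPKM and was named after its value was seen, while MYB122 was not a member. All 9 flavonoid genes were members (median 10.9 FPKM), from CHS, chalcone synthase, with 70.8 and 65.1 FPKM to TT7 with 2.13 and 2.15 FPKM. All 9 photoreceptor genes were members as well, with PHOT1 at 102 and 101, CRY1 at 66.8 and 68.2, CRY2 at 56.9 and 55.5 and PHYD lowest at 3.59 and 3.16 FPKM.

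Lists of genes tied to UV, DNA damage and heat were also read, where 67.9% of all protein-coding genes were members. The plants had been irradiated with UV before lysis, and no unirradiated library is among the Input samples, so a part of the irradiation in these levels cannot be told apart from the rest. The 9 genes of UV-B signalling and photorepair were all members with a median of 4.91 FPKM, beside 5.29 FPKM over all protein-coding genes. UVR8, the UV-B receptor, had 53.2 and 51.9 FPKM, HY5 10.3 and 9.70 and the photolyase UVR3 2.32 and 2.61 FPKM. The 9 DNA damage genes were members as well, with a median of 2.12 FPKM, with SOG1, the master regulator, at 9.02 and 10.4, BRCA1 at 2.04 and 2.197 and SMR7 at 1.18 and 1.46 FPKM. Of 6 heat shock genes 4 were members, HSP70 with 17.56 and 15.3 FPKM the highest, while HSFA2 and HSP17.6A had means of 0.412 and 0.429 FPKM.

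**Figure D4:**
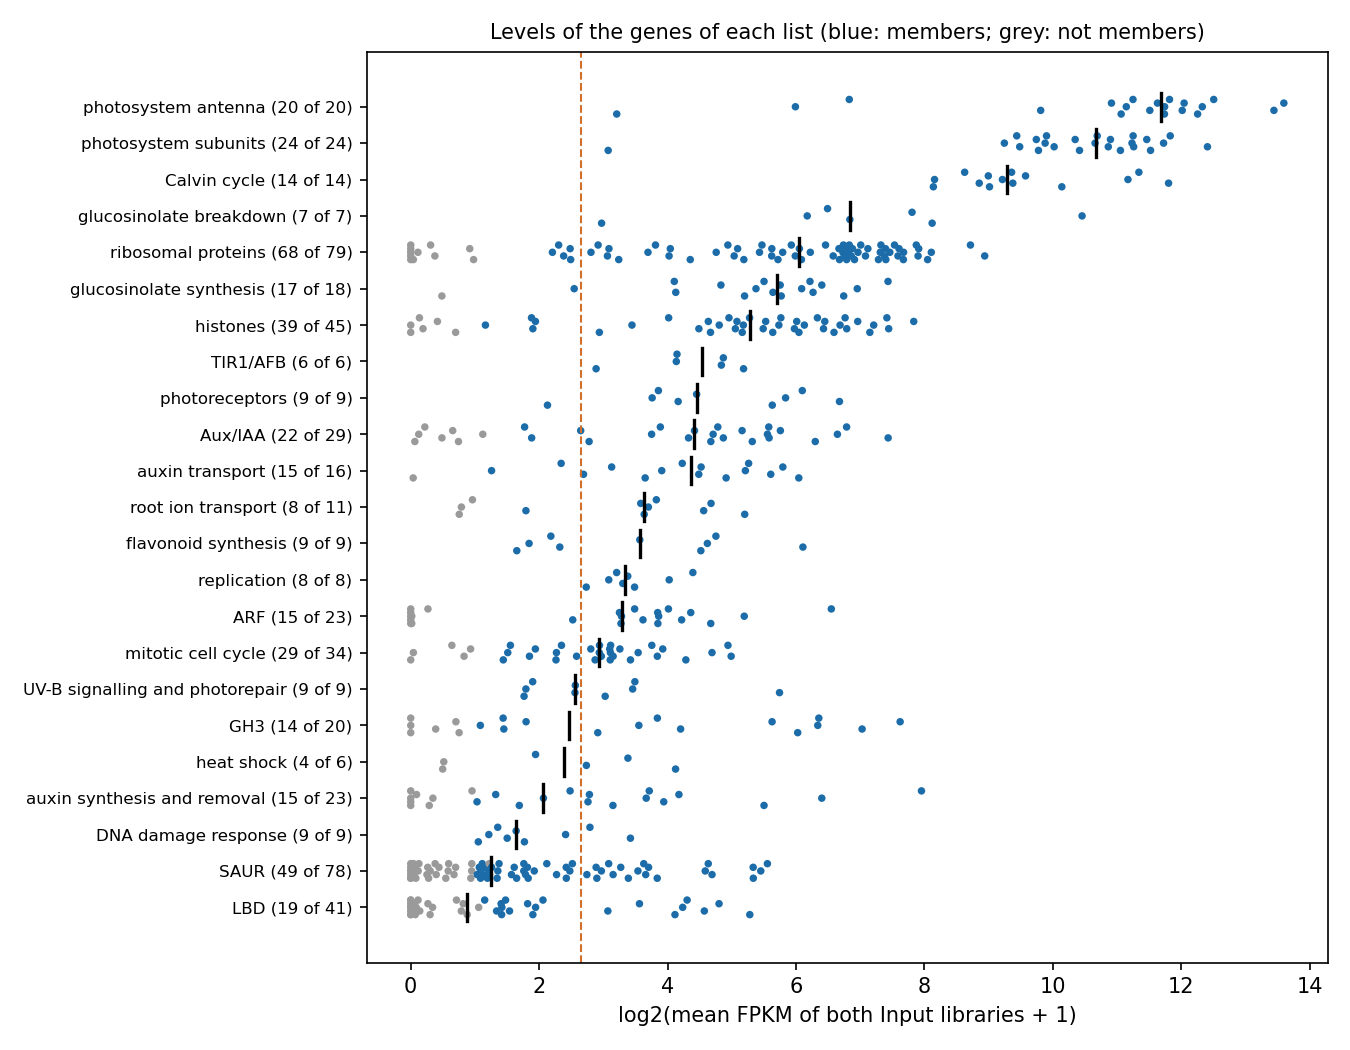
Level of each gene of the 23 pathway lists, as log2(mean FPKM of both Input libraries + 1), in blue for members and grey for other genes, with the list's median as a black bar and the median of all protein-coding genes (5.29 FPKM) as a dashed line. The photosynthesis lists lie highest (antenna median 3293 FPKM), and SAUR and LBD genes lowest (1.37 and 0.839 FPKM).

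Annotated gene families differed in how many of their genes were members. These families were read from the product names and were chosen after the lists above had been seen. Of 652 F-box genes only 160 (24.5%) were members and 353 were at 0, and of 120 MADS box genes, many of which act in flowers and seeds, 28 were members (23.3%), with SVP, a repressor of flowering, the highest at 63.6 FPKM. Of 106 defensin-like genes 11 were members (10.4%), yet LCR69 reached 284 FPKM. By contrast 34 of 36 proteasome subunit genes (94.4%, median 32.8 FPKM), 31 of 38 splicing factor genes (81.6%, median 17.3 FPKM) and 24 of 31 aquaporin genes (77.4%, median 18.1 FPKM) were members. Cytochrome P450 genes were in between with 128 of 218 (58.7%), as were 105 of 158 genes annotated as disease resistance proteins (66.5%), 23 of 33 expansins (69.7%) and 50 of 67 peroxidases (74.6%), beside 67.9% over all protein-coding genes.

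In these libraries non-coding members were fewer than protein-coding ones, and each type of non-coding RNA had a lower median. Their shares differed, since 58.2% of snoRNA and 43.4% of ncRNA genes were members, beside 7.02% of lncRNA genes. The median member annotated as lncRNA had 2.54 FPKM and the median snoRNA 5.51 FPKM, beside 11.1 FPKM for protein-coding members. Members of the short types had a median of 72.5 (tRNA), 94 (snoRNA) and 164.5 bases of exon (snRNA), and ribosomal RNA had been depleted. How fully such short RNAs, or RNAs alike in sequence, were captured and counted was not tested. The shares and medians thus describe these libraries and do not show which RNA types were scarce in the seedlings. The highest non-coding gene was AT4G13495 (chromosome 4, 7842967 to 7846774, plus strand) with 140 and 146 FPKM, followed by AT1G69252 (chromosome 1, 26036570 to 26037659, plus strand) with 120 and 121 FPKM. GUT15, a long-known non-coding transcript, had 83.4 and 86.1 FPKM, AT5G24735 85.5 and 82.7, AT5G48412 66.9 and 71.6 and AT2G14878 68.0 and 67.5 FPKM. AT1G25098 (96.99 and 96.5 FPKM) and AT1G25175 (71.0 and 72.3 FPKM) shared 99.4% and 81.7% of their windows, mostly with each other, so their separate levels are uncertain. The snoRNA AT1G06397 (79.5 and 90.2 FPKM) lay wholly within an exon of SUF4 on the same strand, which had 26.5 and 27.1 FPKM, and its reads cannot be told apart from those of SUF4. AT1G09467, also a snoRNA (66.9 and 67.5 FPKM), had 68 bases of exon, less than a read. Among assembled loci XLOC_001724 with 194 and 195 FPKM and XLOC_006438 with 173 and 173 FPKM were the highest, followed by XLOC_011546 (77.0 and 81.8), XLOC_006459 (46.8 and 53.3) and XLOC_009772 (47.1 and 49.2).

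Finally, the spread between the libraries was examined by level. Across the 19359 members the log2 ratio of Input 1 to Input 2 had a median of -0.006 and an SD of 0.15, and Pearson's r of the log2 levels was 0.996 over these genes, which are not independent replicates. The SD was 0.28 for members of 1 to 2 FPKM, 0.18 for 2 to 10, 0.08 for 10 to 100 and 0.05 for 100 to 1000 FPKM. Only 29 members differed by more than a factor of 2, and 2 of these had a mean of at least 10 FPKM. Of the 911 members of at least 100 FPKM, none differed by more than 0.19 on the log2 scale. The spread of low genes was close to that of counting: the squared deviation per gene, in units of the sampling variance of its reads, was 1.07 over 9024 genes with means of 1 to 10 FPKM and 5.01 over 909 genes of at least 100 FPKM. The files thus held different values and were counted as 2 samples. This measure covers counting error only, and whether the libraries came from separate plants or were technical repeats was not tested.

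Among the 10 members of at least 10 FPKM that differed most were 6 snoRNAs. The snoRNA AT1G09873, with 24 bases of exon, had 19.7 and 8.24 FPKM from 13 and 5 reads, and XLOC_016988, an assembled locus without annotated length, had 14.5 and 7.08 FPKM. The others were AT2G35733 (15.3 and 8.86 FPKM), the snoRNAs AT5G04545 (9.09 and 14.7), AT3G07725 (12.9 and 18.9), AT1G75163 (18.6 and 12.9), AT1G06267 (11.8 and 8.22) and AT4G39364 (25.04 and 35.7), and the protein-coding genes AT4G37095 (16.6 and 24.4) and AT5G03995 (8.63 and 12.3). Their direction was mixed, with 5 of the 10 higher in Input 1.

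**Figure D5:**
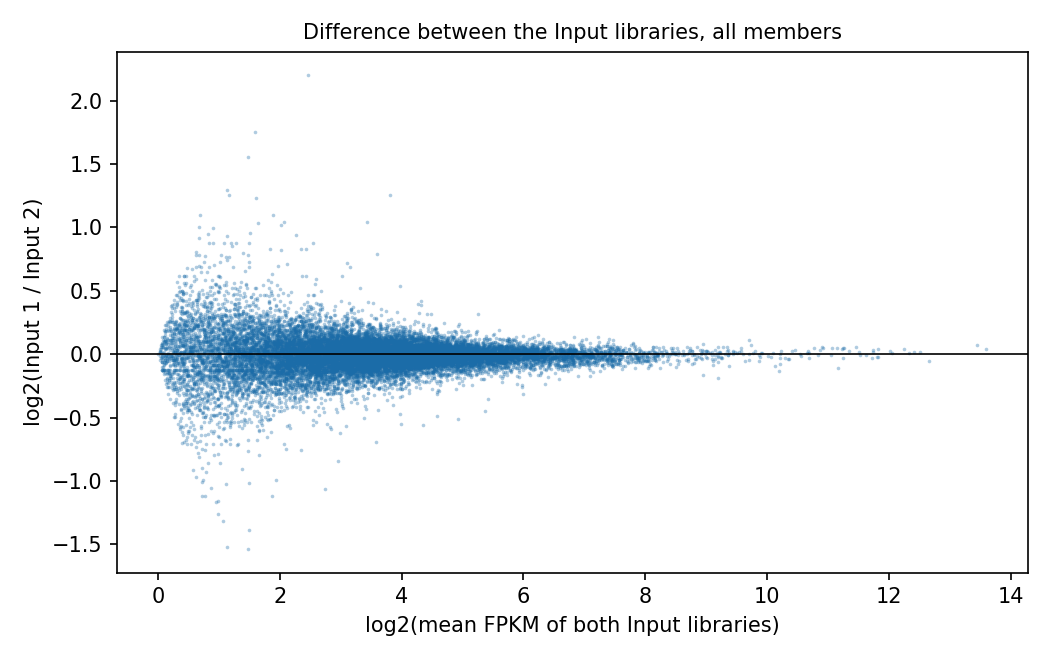
Log2 ratio of Input 1 to Input 2 against the log2 of their mean FPKM, one point per member, with the line at equal levels. The cloud narrows from an SD of 0.28 at 1 to 2 FPKM to 0.05 at 100 to 1000 FPKM and stays centred on 0.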

How the data were processed

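Total RNA of UV-irradiated, NAA-treated seedlings was sequenced as single-end reads of 75 bp. Per the methods, the authors used STAR for mapping and a strand-specific count of summarizeOverlaps (Union); versions are not given in the sources used here, and the submitters' processing notes name the build TAIR10. The deposited values are FPKM, scaled by the authors, in 1 column per library, although the table is described as counts. Multiplied by the merged exon length (TAIR10.1, the reference given here, of which all 32674 nuclear identifiers matched), they were within 0.02 of a whole number of reads for 99.5% of genes with under 30 reads in each Input library. This gave the totals of counted reads to which the FPKM had been scaled. Recovery was tested on simulated data.

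Levels are means ± SD of 2 libraries, and limits of 0 are 3 reads. With a single group no test was made. List medians are medians of the mean FPKM, while differences of a list from all protein-coding genes used medians of log2(FPKM + 1). The members and lists were chosen with earlier results of these data known. Genes were named by rule: the 25 highest features, the 4 highest of each list (any gene of lists under 12), all Aux/IAA and GH3 genes, the 10 most different members of at least 10 FPKM, the 3 nearest the threshold on each side, the 10 highest non-coding genes and the 5 highest assembled loci. Other names were chosen after their values were seen. NSRa and NSRb are not reported here, as no table used here pairs them with an identifier. LBD34, LBD43, DAO1, DAO2, HSP17.6B and HSP17.6C matched no identifier. Alternatives tried were other thresholds, TPM scaling, recovered reads, another pseudocount and each library alone. Python 3.11, numpy, pandas, scipy and matplotlib were used. Columns of the pull-down libraries were not used here.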

Additional observations from a re-analysis of the deposited data

How the results depend on the processing

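The number of members stayed within 1.5 times of 19359 under all 6 alternatives, from 17595 at 2 FPKM to 20717 at 0.5 FPKM, and was 19616 with either library alone. Of the 618 genes of all lists, 479 were members, and 434 to 511 under the alternatives. Of 38 lists, 22 had a median above that of all protein-coding genes, and 17 to 23 under the alternatives. The 10 highest features held 10.11% of the summed FPKM, 10.0 to 10.2% in either library alone, but 6.91% of the recovered reads, in which long genes weigh more. The spread between the libraries fell from an SD of 0.152 to 0.0818 (log2) for members of at least 10 FPKM, an alternative chosen after seeing the data. When only members entered both medians, the log2 difference of a list from all protein-coding genes turned for GH3 (to 0.43), flavonoid synthesis (-0.027), lateral root primordia (-0.52), root hair (-0.71), xylem (-0.16), the mitotic cell cycle (-0.50) and replication (-0.25), as the median of all protein-coding genes rises when only members enter it. That of UV-B signalling was -0.089 with both libraries, -0.062 with Input 2 alone and 0.000499 with Input 1 alone. The other 142 list medians kept their side. Of 190 list counts, 8 moved by more than 1.5 times. At 2 FPKM these were SAUR (32), LBD (12), DNA damage (5), root stem cell niche (2) and flower organs (1). The DNA damage and root stem cell niche genes were thus all members at 1 FPKM but not at 2 FPKM. No paired analysis was possible because the results come from 1 group of 2 libraries and from no test. Low genes are limited by depth: 1 FPKM of a 1000-base gene is about 25 reads.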
